A study of Mus musculus with 8 samples.

Results

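Tead1, Tead2, Tead3, Tead4, Yap1, Wwtr1, Vgll4, Amotl2, Ccn1 and Ccn2 are 10 genes of the Yap and Tead arm of the Hippo pathway, and they were examined for open chromatin in the mouse lens. The genes were chosen by function. Every accessible region that overlapped the gene body or the 50 kb on either side of it was taken, which gave 417 of the 185271 merged regions on the 21 chromosomes. All 10 genes had such regions, between 6 at Ccn2 and 122 at Tead1, and no region fell into the windows of 2 of the genes.

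Open chromatin was mapped by ATAC-seq, in which a transposase cuts and tags accessible DNA. The tissue was the lens of CD1 mice, an outbred strain, with no transgene or treatment named in the labels, at the embryonic stage E14.5 and the postnatal stage P0.5 (days of gestation and days after birth). At each stage the lens was microdissected into epithelium, the proliferating anterior cell layer, and fibers, the elongated cells that epithelial cells differentiate into, with several lenses pooled per sample. The 2 libraries of each of the 4 groups had been combined into 1 peak list per group, so no value has a replicate error and no comparison was tested.

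In the Hippo pathway the kinases Stk3 and Stk4 act through Lats1 and Lats2, which phosphorylate the coactivators Yap1 and Wwtr1 (also called Taz) and so keep them out of the nucleus. When the kinases are inactive, Yap1 and Wwtr1 enter the nucleus and bind the Tead factors, which recognise the letters GGAATG through their TEA domain and switch on genes of growth and matrix remodelling. In the lens, Yap1 is known for its part in keeping the epithelium proliferating.

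The sequences of most of the promoters held the letters that the Tead factors recognise, which the rule for choosing regions did not use, although Amotl2, Ccn1 and Ccn2 are known as Yap and Tead targets. RefSeq promoter sequences (GRCm38.p6, 300 bases around a start site) were matched for 7 of the 10 genes, and 6 of these 7 held the Tead motif GGAATG on one strand or the other, the exception being Tead2. Of 27025 genes with such sequences, 16.6% held it, and of 32851 promoters, 14.7%. Tead1, Tead4 and Ccn2 had no entry. The promoters with a match are shown from 5′ to 3′ on the strand of the gene, with the motif or its reverse complement in capitals, 1 per gene.
Ccn1 promoter, chr3:145649936-145650235, minus strand: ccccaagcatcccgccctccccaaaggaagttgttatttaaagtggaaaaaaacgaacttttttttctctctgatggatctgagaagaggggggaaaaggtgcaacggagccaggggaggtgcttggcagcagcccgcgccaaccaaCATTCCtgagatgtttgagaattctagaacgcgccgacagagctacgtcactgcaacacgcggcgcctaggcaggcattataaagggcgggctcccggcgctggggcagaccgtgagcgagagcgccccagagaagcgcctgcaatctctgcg
Amotl2 promoter, chr9:102717554-102717853, plus strand: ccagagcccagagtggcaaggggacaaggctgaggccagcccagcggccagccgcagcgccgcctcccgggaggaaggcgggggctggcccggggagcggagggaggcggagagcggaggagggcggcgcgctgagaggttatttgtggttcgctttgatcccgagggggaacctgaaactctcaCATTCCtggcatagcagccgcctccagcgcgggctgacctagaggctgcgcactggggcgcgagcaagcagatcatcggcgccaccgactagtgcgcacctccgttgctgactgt
Yap1 promoter, chr9:8004547-8004846, minus strand: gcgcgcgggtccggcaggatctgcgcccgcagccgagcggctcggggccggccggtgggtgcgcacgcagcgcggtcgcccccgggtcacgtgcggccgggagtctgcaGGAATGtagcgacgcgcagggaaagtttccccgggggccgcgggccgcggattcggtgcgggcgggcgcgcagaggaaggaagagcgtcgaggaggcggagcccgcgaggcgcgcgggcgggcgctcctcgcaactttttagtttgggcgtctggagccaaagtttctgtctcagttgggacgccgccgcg
Wwtr1 promoter, chr3:57575861-57576160, minus strand: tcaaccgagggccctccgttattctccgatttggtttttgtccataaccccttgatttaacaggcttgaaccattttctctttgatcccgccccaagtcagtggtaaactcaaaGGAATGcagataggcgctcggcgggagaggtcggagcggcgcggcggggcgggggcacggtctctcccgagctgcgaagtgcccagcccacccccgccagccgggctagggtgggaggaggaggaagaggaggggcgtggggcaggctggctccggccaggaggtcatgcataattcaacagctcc
Vgll4 promoter, chr6:114969154-114969453, minus strand: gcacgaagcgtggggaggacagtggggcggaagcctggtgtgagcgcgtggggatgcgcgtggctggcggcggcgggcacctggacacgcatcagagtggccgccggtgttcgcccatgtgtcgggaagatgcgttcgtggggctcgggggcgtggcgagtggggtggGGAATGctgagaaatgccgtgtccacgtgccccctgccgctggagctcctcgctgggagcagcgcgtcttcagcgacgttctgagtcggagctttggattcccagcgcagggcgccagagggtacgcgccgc
Tead3 promoter, chr17:28350551-28350850, minus strand: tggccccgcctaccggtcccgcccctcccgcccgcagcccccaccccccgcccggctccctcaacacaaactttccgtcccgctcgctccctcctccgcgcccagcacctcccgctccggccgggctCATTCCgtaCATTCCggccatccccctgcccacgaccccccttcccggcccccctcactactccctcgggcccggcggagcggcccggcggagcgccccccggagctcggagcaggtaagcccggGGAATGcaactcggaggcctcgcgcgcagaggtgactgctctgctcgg
The Tead3 promoter held 3 matches, of which 2 stood side by side with 3 bases between them, and each of the other 5 promoters held 1. RefSeq lists 3 promoters of Tead3, and the one shown is that with the most matches, the others holding 1 and 0.

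The same letters were counted in the 200 bp around the summit of the promoter region of each gene that ranked highest in any of the peak lists. Of the 10 genes, 7 had a match there (70.0%, 95% Wilson interval 39.7 to 89.2%), against 6.23% of the 12451 protein-coding genes whose highest ranking promoter region was likewise called in all 4 lists. The interval covers counting error only, as do all those below. Tead1, Tead3, Tead4, Yap1, Amotl2, Ccn1 and Ccn2 held the motif, and Tead2, Wwtr1 and Vgll4 did not. For Vgll4 the region counted is at another start site than the promoter sequence shown above. The region that overlaps that sequence (chr6:114968438-114970237) held 1 match at its summit. The share was the same 70.0% in the central 100 bp, where that of all genes was 3.24%. GC content did not separate the sets, at a median of 64.8% for the 10 genes and 67.5% for all.

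In Tead1, Tead3, Tead4 and Ccn2 the promoter region held 2 or 3 matches, as did 0.329% of the 12451 genes. The matches of Tead3, of Tead4 and of Ccn2 included a pair on the same strand that started 9 bp apart. Only 4 of the 12451 genes had such a pair at this place (0.0321%), the fourth being Erc2, a synaptic scaffold gene. Over all 185271 regions the pair occurred in 52 (0.0281%), and in the 417 regions of the 10 windows it occurred in these 3. The spacing was picked from the matches of the 10 genes themselves and the promoter regions were singled out after the motif counts were seen, so these shares are descriptions. The 13 matches lay 1 to 95 bp from the summit, with a median of 30 bp. In Ccn2, a secreted matrix protein and standard readout of Yap activity, they were centred 103, 38 and 29 bp before the start site. In Tead4 they lay 333, 345 and 354 bp after it, and in Tead1 they straddled it, from 11 bp before to 2 bp after.

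Away from promoters the Tead letters were about as frequent as in the rest of the genome. Of the 375 regions over 2 kb from every start site, 56 held the motif (14.9%, 11.7 to 18.9%), against 14.4% of 154852. Within the windows the motif was found in 10 of the 21 regions at the genes' own promoters (47.6%, 28.3 to 67.6%, against 3044 of the 30419 regions genome-wide within 2 kb of a start site) and in 2 of the 21 at promoters of neighbouring genes (9.52%, 2.65 to 28.9%). Over all 417 regions the share was 16.3% (13.1 to 20.2%) against 13.7%. The Maf letters TGCTGA stood in 18.9% against 23.1%, the AP-1 letters TGANTCA in 6.95% against 6.58% and the Sox letters ACAATG in 8.87% against 10.9%. The CTCF motif stood in 1.68% against 3.03%, and the NF1 motif in 0 of 417, with an upper bound of 0.913%, against 0.0383%.

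**Figure D1:**
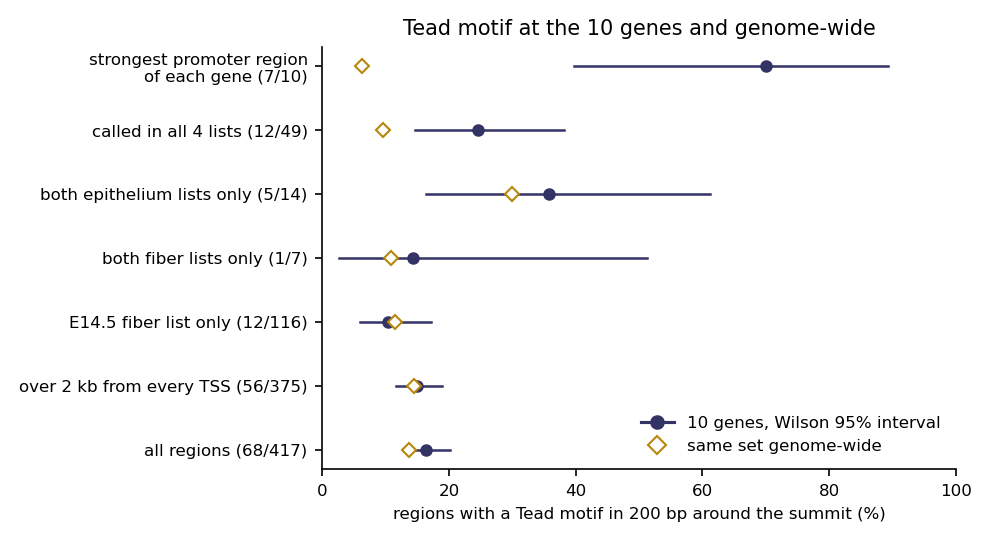
Percentage of regions with the Tead motif in the 200 bp around the summit, for 7 sets of regions. Circles with Wilson 95% intervals give the regions of the 10 genes (numbers beside each label) and diamonds the same set genome-wide, and the promoter regions stand farthest apart, at 70.0% against 6.23%.

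Facts of the whole data set set the limits of what follows. At E14.5 the epithelium list was 100003 peaks long and the fiber list 123743, and at P0.5 the lengths were 58592 and 62995, while the windows of the 10 genes held 282, 307, 140 and 133 of them. Depth is not given in the lists. Peaks were placed by the rank of their fold enrichment over background within the list, as a percentage of its length, so that a low place is a strong peak. Only 102 to 506 different fold enrichments occurred per list, so places move in steps, most coarsely in P0.5 fibers, where 48.9% of peaks had a q value under 0.001 against 80.5 to 87.9% in the other lists. Of marker genes listed for the cell types of the eye, the promoter peaks of all 6 fiber genes (Mip, Lim2, Bfsp1, Bfsp2, Crybb1 and Cryaa) stood nearer the top in fibers at both stages. Among 3 epithelial genes, that of Foxe3 stood nearer the top in epithelium at both stages, while Pax6 was nearer in the E14.5 fiber list (0.479% against 3.73%) and Cdh1 stood at 22.5% and 19.5% of the E14.5 and 39.5% and 48.9% of the P0.5 epithelium and fiber lists. Ptprc of macrophages and Krt12 and Krt14 of the surface ectoderm had no promoter peak in any list, Pecam1 and Tie1 of endothelium had 1 in 1 list each, and Cdh5 had 1 in all 4. Csf1r had promoter peaks in 3 lists at places of 40.6 to 52.3%, and the mesenchymal genes Pdgfra and Foxc1 in all 4 at 4.26 to 14.0%. The part of other cells in the values below was not tested, and in bulk tissue fewer cells with an open region and a less open region per cell cannot be told apart.

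All 10 genes had a promoter peak, within 2 kb of a curated RefSeq start site, in every list. Of 21000 protein-coding genes, 70.3%, 71.2%, 67.0% and 64.6% had one in the epithelium and fiber lists of E14.5 and then of P0.5, and 60.6% had one in all 4. At E14.5 the promoter peak of 9 of the 10 genes stood nearer the top in the epithelium list than in the fiber list, which was so for 27.2% of the 14426 genes with a peak in both. At P0.5 it was 7 of 10, against 42.5% of 12836 genes. Vgll4, with 2 start sites, is counted by a different start site at each stage. At E14.5 the 10 promoter peaks had a median place of 4.85% in epithelium against 8.78% in fibers, while the median of all genes went the other way, from 7.68 to 6.10%. At P0.5 the medians of the 10 genes were 6.85% and 12.7%, and those of all genes 12.8% and 10.3%. The direction at each of the 10 genes was kept at both stages among the regions called in all 4 lists and with promoters within 1 kb, the latter changing 1 of the 40 places.

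**Figure D2:**
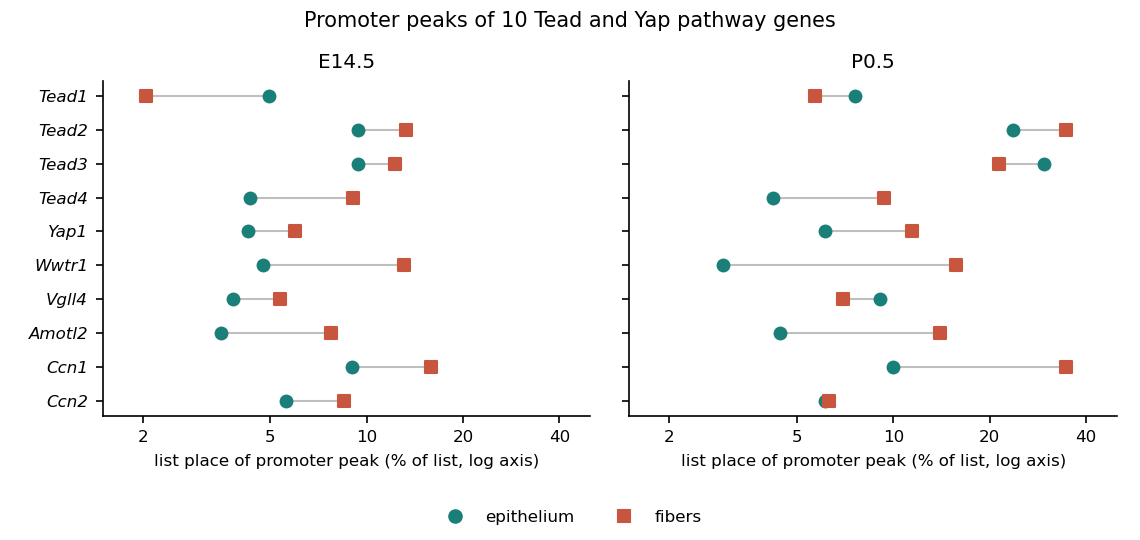
List place of the promoter peak with the highest rank of each of the 10 genes in epithelium (circles) and fibers (squares), at E14.5 on the left and P0.5 on the right, on a log axis on which points to the left are stronger peaks. At E14.5 the epithelium stands to the left for 9 genes and at P0.5 for 7, with Tead1 the exception at both stages.

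Among the coactivators, the Yap1 promoter (gene on chr9:7931999-8004638, minus strand) stood at 4.26% of the E14.5 epithelium list and 5.96% of the fiber list, and at 6.14% and 11.4% of the P0.5 lists. The Wwtr1 promoter (chr3:57455644-57575910, minus strand) stood at 4.75% and 13.1% at E14.5 and at 2.95% and 15.7% at P0.5. Yap1 thus differed by less than 2 times between tissues, while Wwtr1 was 2 or more times nearer the top in epithelium at both stages, by 5.33 times at P0.5. Between the stages the place of Wwtr1 in epithelium moved toward the top, as it did for 18.6% of 13853 genes, and that of Yap1 moved away. Among the regions called in all 4 lists, however, both moved toward the top, Wwtr1 from 23.4 to 8.56% and Yap1 from 21.1 to 17.6%.

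Of the 4 Tead genes, which encode the DNA-binding partners, Tead4 went with Wwtr1 and Tead1 went the other way. The Tead4 promoter (chr6:128227143-128300813, minus strand) stood at 4.32% and 9.05% in epithelium and fibers at E14.5 and at 4.22% and 9.32% at P0.5. The Tead1 promoter (chr7:112679356-112906784, plus strand) stood at 4.95% and 2.05% at E14.5 and at 7.57% and 5.69% at P0.5. At E14.5 it was the 1 gene of the 10 whose promoter peak stood at least 2 times nearer the top in fibers, as in 12.7% of all genes, while Tead4, Wwtr1 and Amotl2 were so in epithelium, as in 3.26%. Among the regions called in all 4 lists Tead1 stood at 24.3% and 12.6%, a ratio of fibers to epithelium of 0.516 that falls just short of 2 times.
The Tead2 promoter (chr7:45215792-45233468, plus strand) stood at 9.44% and 13.3% at E14.5 and at 23.6% and 34.7% at P0.5. The Tead3 promoter (chr17:28331671-28350805, minus strand) stood at 9.44% and 12.3%, then at 29.6% and 21.4%. Tead2 and Tead3 were thus the Tead genes with the weakest promoter peaks, and they lay below the median gene in both tissues at both stages.

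Vgll4, a cofactor that competes with Yap1 for the Tead factors, had promoter peaks at 3.82% and 5.38% of the E14.5 lists and at 9.10% and 6.94% of the P0.5 lists (gene on chr6:114860621-114970007, minus strand). It stood nearer the top in epithelium at E14.5 and in fibers at P0.5. Amotl2, a junction protein that binds Yap1 and is itself a Yap target, stood at 3.51% and 7.76% at E14.5 and at 4.44% and 14.0% at P0.5 (chr9:102717091-102733418, plus strand). Its promoter peak was 3.15 times nearer the top in epithelium at P0.5.

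The secreted targets Ccn1 (Cyr61) and Ccn2 (Ctgf) differed from each other in fibers. The Ccn1 promoter (chr3:145646971-145649985, minus strand) stood at 9.01% and 15.9% in epithelium and fibers at E14.5 and at 9.96% and 34.7% at P0.5. The Ccn2 promoter (chr10:24595442-24598683, plus strand) stood at 5.59% and 8.52% at E14.5 and at 6.14% and 6.31% at P0.5. At P0.5 the Ccn1 peak was thus 3.49 times nearer the top in epithelium, with a width of 1060 bp there against 204 bp in fibers. Ccn2 had nearly the same place in both tissues, although its peak was also wider in epithelium, at 1666 bp against 641 bp. A ratio of 2 or more toward epithelium was seen at P0.5 for Tead4, Wwtr1, Amotl2 and Ccn1, as in 15.0% of all genes, and for none of the 10 toward fibers, as in 21.8%.

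The number of accessible regions sorted the genes differently. In the windows of Tead1 and Vgll4 more regions were called in E14.5 fibers than in E14.5 epithelium, as in those of Tead3 and Yap1, and in the windows of the other 6 genes fewer. Of 301 regions called in E14.5 fibers, 130 were not called in E14.5 epithelium (43.2%, 37.7 to 48.8%), against 49.9% of all regions. Of 242 called in E14.5 epithelium, 71 were not called in fibers (29.3%, 24.0 to 35.4%), against 32.9%. Without the windows of Tead1 and Vgll4, which hold 205 of the 417 regions, the first share was 32.8% (24.9 to 41.7%) and the second 43.1% (35.1 to 51.4%). The fiber list was also the longer one, and with equal numbers of peaks per list the shares over all 10 windows were 29.9% for fibers and 29.5% for epithelium, against 31.2% and 27.4% of all regions. At P0.5, 70 of 122 epithelium regions were not called in fibers (57.4%, 48.5 to 65.8%, against 58.4%), and 59 of 111 fiber regions not in epithelium (53.2%, 43.9 to 62.2%, against 61.2%). Over 2 kb from every start site, the share of epithelium regions not called in fibers was 30.1% (24.3 to 36.7%) at E14.5 against 38.6% of all such regions, and 64.6% (54.8 to 73.4%) at P0.5 against 75.9%. The share of fiber regions not called in epithelium was 46.3% (40.5 to 52.3%) at E14.5 against 56.1%, and 61.1% (50.8 to 70.5%) at P0.5 against 78.1%. Over the 10 windows pooled, regions away from start sites were thus more often shared between tissues than those of the genome. The intervals cover counting error only, and these shares were not computed without Tead1 and Vgll4. In E14.5 epithelium, 8 of 53 such regions at Tead1 and 4 of 46 at Vgll4 were not called in fibers. Tead3 (6 of 18) and Yap1 (5 of 15) also lay below the genome-wide 38.6%. Above it lay Tead2 (5 of 12), Tead4 (9 of 21) and Wwtr1 (4 of 9). So did Amotl2 (13 of 21), Ccn1 (5 of 9) and Ccn2 (4 of 5). The lowest P0.5 epithelium share was that of Vgll4 (7 of 21).

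**Figure D3:**
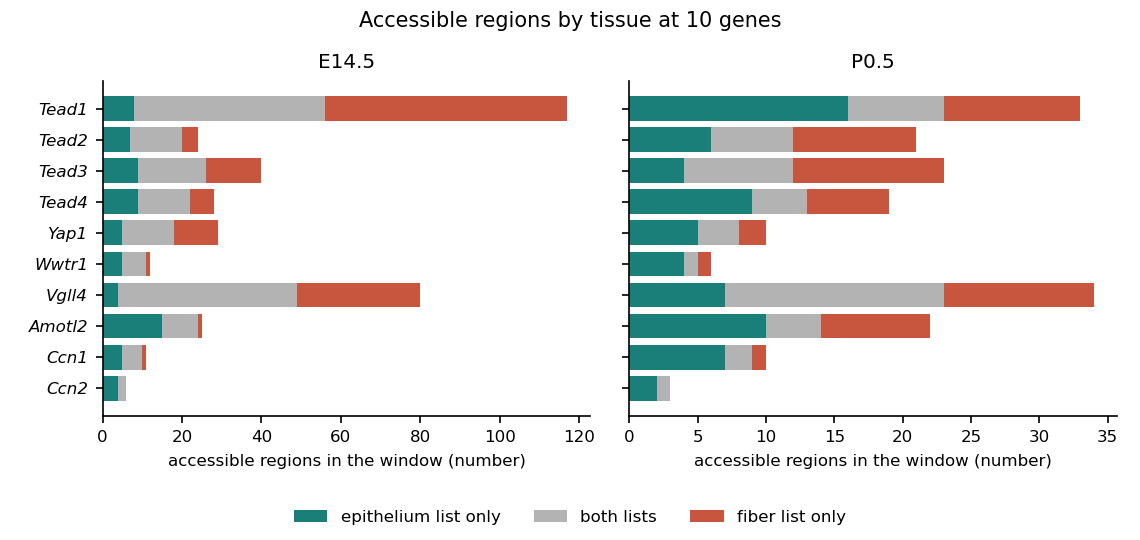
Number of accessible regions in the window of each gene that were called in the epithelium list only, in both lists or in the fiber list only, at E14.5 (left) and P0.5 (right, another scale). At E14.5 the fiber-only part is largest at Tead1 (61 regions) and Vgll4 (31), and at Amotl2 15 regions are epithelium-only and 1 is fiber-only.

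Tead1 had 122 regions, called 56 and 109 times in E14.5 epithelium and fibers and 23 and 17 times in P0.5 epithelium and fibers. At E14.5, 61 of the 109 fiber regions were not called in epithelium (49.9% of all regions) and 8 of the 56 epithelium regions were not called in fibers (32.9%). At P0.5, 16 of 23 epithelium regions were not called in fibers (58.4% of all regions) and 10 of 17 fiber regions not in epithelium (61.2%). Of its 122 regions, 56 were called in E14.5 fibers alone, as were 29.3% of all regions. They stood at places of 14.9 to 90.1% with a median of 67.8%, near the median of 64.1% for all such regions, and 38 of them had a q value under 0.001 (67.9%, against 65.6%). Beside its promoter, the regions of Tead1 with the highest place in any list lay in introns 128 kb and 144 kb after the nearest start site, at 10.6% and 8.35% and at 9.44% and 8.43% of the E14.5 lists. The region at 128 kb held a Tead motif and was not called in P0.5 fibers, and that at 144 kb was called in every list.

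Vgll4 had 83 regions, called 49 and 76 times at E14.5 and 23 and 27 times at P0.5. At E14.5, 31 of its 76 fiber regions were not called in epithelium (49.9% of all regions) and 4 of its 49 epithelium regions were not called in fibers (32.9%), so both shares lay below those of the genome. Of its 83 regions, 28 were called in E14.5 fibers alone (29.3% of all regions), at places of 36.0 to 97.7%. Its E14.5 fiber peaks covered 27.5% of the window, 12.2 times the share of the genome they cover, which 1.08% of 21774 genes reached. The highest placed region of the 10 windows at E14.5 was in an intron of Vgll4 (chr6:114888411-114889517), at 1.22% and 1.67% of the epithelium and fiber lists. At P0.5, where a region near Tead4 and, in epithelium, the Wwtr1 promoter stood higher, it was found at 3.44% and 3.45% of the P0.5 lists, above the promoters of the gene in every list. It held 1 Tead motif, shown in capitals in the 200 bp at its summit.
Vgll4 intron, 32.7 kb downstream, chr6:114889049-114889248, plus strand: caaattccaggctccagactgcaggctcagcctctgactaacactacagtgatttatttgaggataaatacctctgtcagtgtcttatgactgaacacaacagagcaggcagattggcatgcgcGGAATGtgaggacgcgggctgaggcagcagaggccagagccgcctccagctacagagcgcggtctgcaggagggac
It was called in both tissues at both stages, and its places differed less between tissues than those of the promoters of Amotl2 or Wwtr1.

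**Figure D4:**
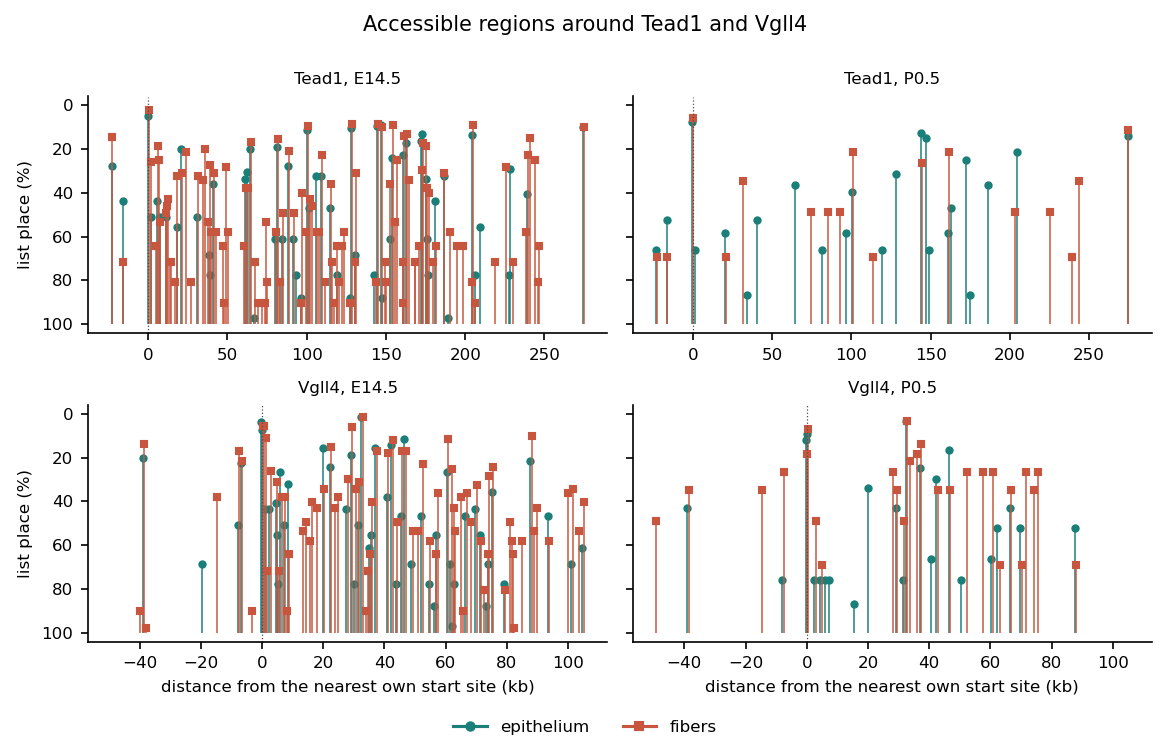
Each accessible region around Tead1 (top) and Vgll4 (bottom) at its distance from the nearest start site of the gene, with its list place on an inverted axis (taller is stronger), in epithelium (circles) and fibers (squares) at E14.5 (left) and P0.5 (right). The intron of Vgll4 at 32.7 kb stands at 1.22 to 3.45% in all 4 lists, and the many short lines at E14.5 are weak peaks called in fibers.

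More regions of Amotl2 were called in epithelium than in fibers at E14.5. Of its 31 regions, 24 were called in the epithelium and 10 in the fibers of this stage, and 15 and 1 of these were not called in the other tissue (32.9% and 49.9% of all regions). Of the 14 regions of all windows that were called in both epithelium lists and in neither fiber list, 7 were at Amotl2, 2 at Tead4 and 1 each at Tead1, Yap1, Wwtr1, Ccn1 and Ccn2. Such regions made up 3.36% of the 417 (2.01 to 5.56%), against 2.28% of all regions. The 7 at Amotl2 ran from 2.62 kb before to 60.5 kb after its start site. The highest placed lay 29.1 kb after it, in the body of another gene, at 25.3% of the E14.5 and 20.5% of the P0.5 epithelium list. At P0.5, 8 of 12 fiber regions at Amotl2 were not called in epithelium (61.2% of all regions) and 10 of 14 epithelium regions not in fibers (58.4%).

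Of the 14 regions, 5 held the Tead motif (35.7%, 16.3 to 61.2%), against 29.9% of the 4219 regions with this pattern genome-wide. Both shares exceed the 13.7% of all regions, and the share of the 10 genes cannot be told from that of the pattern. The 200 bp at the summits of the 5 are shown, since they join the motif with calls in epithelium alone, with the motif in capitals.
Amotl2 2.62 kb upstream, chr9:102715083-102715282, plus strand: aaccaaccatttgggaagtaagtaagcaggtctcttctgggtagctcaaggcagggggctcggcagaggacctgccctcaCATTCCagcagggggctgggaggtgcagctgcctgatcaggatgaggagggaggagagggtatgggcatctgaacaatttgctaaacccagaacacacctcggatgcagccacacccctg
Amotl2 intron, 11.9 kb downstream, chr9:102729556-102729755, plus strand: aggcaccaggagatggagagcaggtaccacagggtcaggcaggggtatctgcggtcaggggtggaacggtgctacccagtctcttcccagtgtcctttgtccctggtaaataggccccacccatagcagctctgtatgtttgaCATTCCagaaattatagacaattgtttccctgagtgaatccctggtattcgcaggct
Amotl2 49.2 kb downstream, chr9:102766878-102767077, plus strand: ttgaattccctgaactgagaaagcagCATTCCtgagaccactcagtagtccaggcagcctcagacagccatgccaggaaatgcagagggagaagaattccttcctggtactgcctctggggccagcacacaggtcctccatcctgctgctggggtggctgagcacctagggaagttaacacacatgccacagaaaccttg
Tead4 121 kb downstream, chr6:128179983-128180182, plus strand: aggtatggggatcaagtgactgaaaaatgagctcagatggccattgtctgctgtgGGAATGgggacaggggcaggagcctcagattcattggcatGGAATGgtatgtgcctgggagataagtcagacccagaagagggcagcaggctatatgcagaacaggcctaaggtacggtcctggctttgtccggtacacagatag
Wwtr1 intron, 72.2 kb downstream, chr3:57503604-57503803, plus strand: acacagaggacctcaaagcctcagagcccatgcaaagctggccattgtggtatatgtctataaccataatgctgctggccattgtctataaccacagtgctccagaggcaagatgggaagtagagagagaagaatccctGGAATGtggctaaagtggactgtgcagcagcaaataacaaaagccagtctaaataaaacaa
The Tead4 region held 2 matches and lay in the body of another gene, and the region within 2.62 kb of the Amotl2 start reached into its promoter. Of the 7 regions called in both fiber lists alone, 1 held the motif (14.3%, 2.57 to 51.3%, against 10.8%), and 12 of the 116 called in E14.5 fibers alone (10.3%, 6.02 to 17.2%, against 11.4%). Of the 7 fiber regions, 3 were at Tead1, 2 at Vgll4 and 1 each at Tead3 and Tead4, and they made up 1.68% of the 417 against 2.43% of all regions.

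The regions of Amotl2 that were called in every list included 2 strong ones beside its promoter. The intron region 8.69 kb after the start stood at 6.12% and 12.9% of the E14.5 lists and at 12.8% and 69.2% of the P0.5 lists, and so was strong in epithelium and near the weak end in P0.5 fibers. A region between genes 61.9 kb after the start (chr9:102779195-102780045) stood at 7.68% and 19.0% and at 9.96% and 14.0%. It held 3 Tead matches at its summit, more than any other region of the 10 windows over 2 kb from a start site, and is shown for that.
Amotl2 61.9 kb downstream, chr9:102779607-102779806, plus strand: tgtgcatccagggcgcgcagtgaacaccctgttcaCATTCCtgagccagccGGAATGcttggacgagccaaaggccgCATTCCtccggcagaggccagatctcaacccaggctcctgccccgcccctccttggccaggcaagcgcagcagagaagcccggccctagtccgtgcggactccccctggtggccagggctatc
The 3 capitalised matches lie on both strands within the left part of the sequence.

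Ccn1 and Ccn2 had few regions, and more of them were called in epithelium than in fibers. Ccn1 had 16, called 10 and 6 times at E14.5 and 9 and 3 times at P0.5. At P0.5, 7 of its 9 epithelium regions were not called in fibers (58.4% of all regions). The strongest away from its promoter lay 3.45 kb before the start and stood at 10.4% and 14.9% of the E14.5 lists and at 16.5% and 26.4% of the P0.5 lists. Ccn2 had 6 regions. At E14.5 all 6 were called in epithelium and 2 in fibers, and at P0.5 the numbers were 3 and 1, the last being the promoter, which it shares with Gm15270. Of the epithelium regions, 4 of 6 and 2 of 3 were not called in fibers (32.9% and 58.4% of all regions). The region 4.08 kb before its start, in the body of another gene, was called in epithelium alone, at 29.0% of the E14.5 and 31.6% of the P0.5 list. Another, 29.9 kb after it, stood at 19.5% and 25.2% of the E14.5 lists and at 52.3% of the P0.5 epithelium list.

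**Figure D5:**
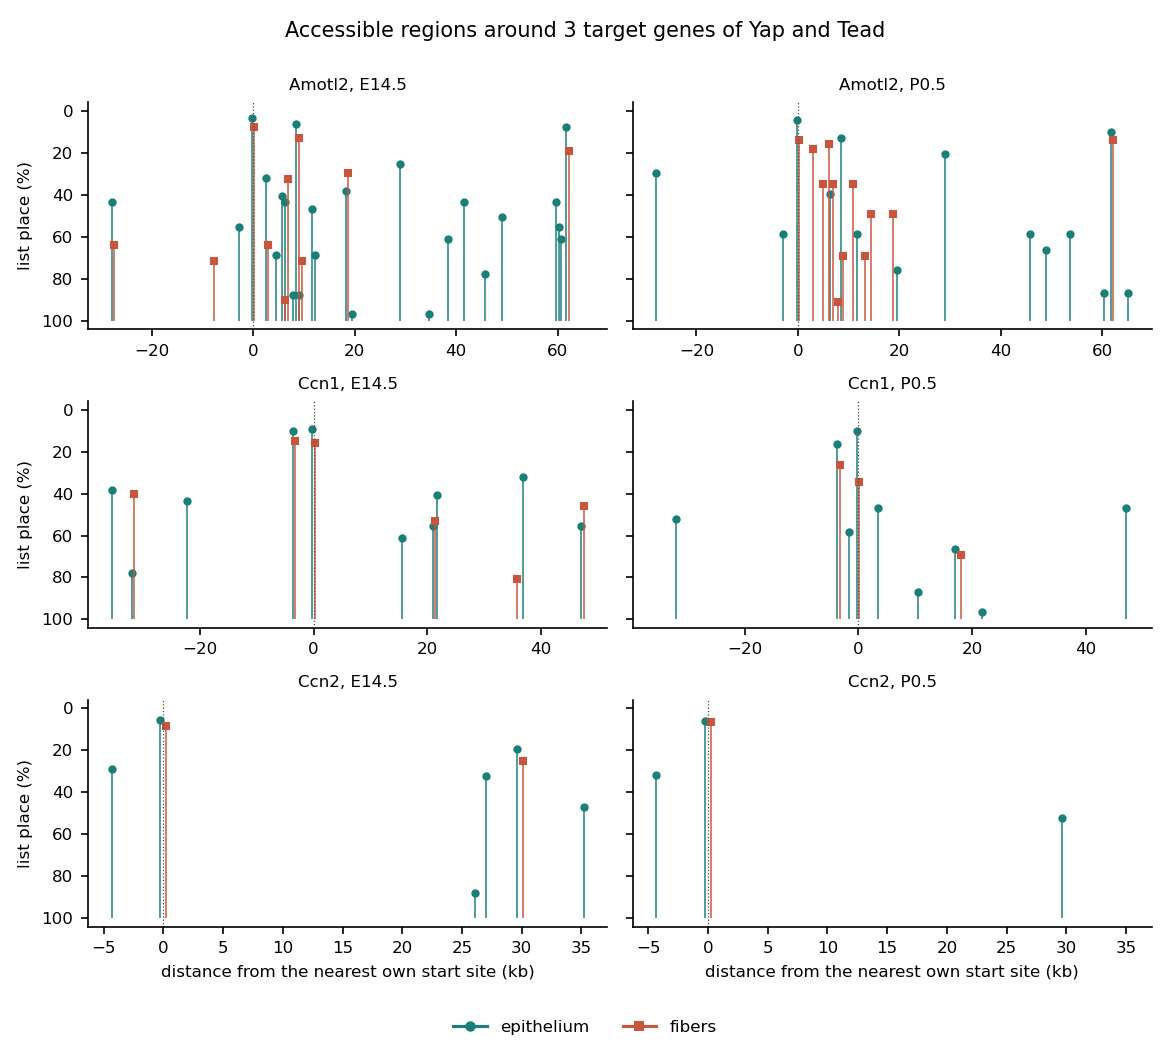
Each accessible region around Amotl2, Ccn1 and Ccn2 at its distance from the nearest start site of the gene, with its list place on an inverted axis (taller is stronger), in epithelium (circles) and fibers (squares) at E14.5 (left) and P0.5 (right). Most regions away from the promoter carry a circle without a square at Ccn2 at both stages and at Ccn1 at P0.5. The Amotl2 region at 29.1 kb (25.3% and 20.5%) does so too.

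Wwtr1 had 13 regions, called 11 and 7 times at E14.5 and 5 and 2 times at P0.5, and 4 of the 13 held the Tead motif (13.7% of all regions). At E14.5, 5 of the 11 epithelium regions were not called in fibers (32.9% of all regions) and 1 of the 7 fiber regions not in epithelium (49.9%). Away from its promoter its highest place was 14.4%, in an intron 105 kb after the start in E14.5 fibers, so that the promoter outranked every other region of the gene. Yap1 had 30 regions, called 18 and 24 times at E14.5 and 8 and 5 times at P0.5, with 11 of the 24 E14.5 fiber regions not called in epithelium (49.9% of all regions) and 5 of the 18 epithelium regions not called in fibers (32.9%). Its window also held the promoter of Cfap300, at 4.15 to 8.49% of the lists, and a region between genes 90.0 kb after its start, at 10.6% and 14.4% of the E14.5 and 14.6% and 21.4% of the P0.5 lists. In epithelium the promoters of both coactivators thus ranked above those of the median gene, while in fibers that of Wwtr1 ranked below it at both stages and that of Yap1 at P0.5.

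Tead4 had 34 regions, called 22 and 19 times in epithelium and fibers at E14.5 and 13 and 10 times at P0.5. At E14.5, 9 of the 22 were not called in fibers (32.9% of all regions) and 6 of the 19 not in epithelium (49.9%). A region between genes 100 kb after its start (chr6:128200121-128201320) outranked its promoter in every list, at 1.43% and 2.57% of the E14.5 lists and at 2.23% and 2.85% of the P0.5 lists, without a Tead motif at its summit. Tead2 had 35 regions, called 20 and 17 times at E14.5 and 12 and 15 times at P0.5, and 1 of the 35 held the motif (13.7% of all regions). Tead3 had 47 regions, called 26 and 31 times and then 12 and 19 times, with 7 of the 47 holding the motif. At E14.5, 7 of the 20 and 9 of the 26 epithelium regions were not called in fibers, and 4 of the 17 and 14 of the 31 fiber regions not in epithelium, where the shares of all regions were the same 32.9% and 49.9%. Several strong regions of the Tead2 and Tead3 windows were promoters of neighbours, Pth2 and Kash5 for Tead2 and Fance and Rpl10a for Tead3. The strongest region of Tead3 itself beside its promoter was an intron 9.06 kb after the start, at 9.74% and 7.33% of the E14.5 and 14.6% and 9.32% of the P0.5 lists.

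Over all windows, 49 of the 417 regions were called in every list (11.8%), against 10.9% of all regions. Away from start sites it was 33 of 375 (8.80%, 6.33 to 12.1%), against 4.69%. Of the 49 regions, 12 held the Tead motif, and 7 of these were the promoter regions described first. Without the promoter region of each gene it was 5 of 39 (12.8%, 5.60 to 26.7%), against 9.63% of all regions called in every list. Between stages, 142 of the 242 E14.5 epithelium regions were not called at P0.5 (58.7%, against 56.0%), and 226 of the 301 E14.5 fiber regions (75.1%, against 75.9%), both near the genome-wide shares. In the reverse direction, 22 of 122 P0.5 epithelium regions (18.0%, against 22.3%) and 36 of 111 P0.5 fiber regions (32.4%, against 46.9%) were not called at E14.5. Without the windows of Tead1 and Vgll4 these shares were 22.4% and 44.8% (33.5 to 56.6%), near the genome-wide ones. By position, 220 of the 417 regions lay in the body of the gene they belong to, 205 of them in introns, 11 in coding exons and 4 in the 3′ UTR. Another 21 lay at its promoter, 21 at the promoter and 94 in the body of another gene, and 61 between genes.

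In the wider pathway the promoters were mixed in direction. Of 16 Hippo kinases and upstream genes, 15 had a promoter peak in every list and Amot, which is related to Amotl2, had one in none. At E14.5, 4 of these 15 stood nearer the top in epithelium, where the share of all genes was 27.2%, and at P0.5 8 of 15, where it was 42.5%. The highest placed were the kinase gene Stk3, at 0.507% and 1.54% of the E14.5 epithelium and fiber lists and 0.446% of the P0.5 fiber list, and Fat4, an atypical cadherin upstream of the kinases, at 0.391% in P0.5 epithelium, where Stk3 came next. In E14.5 fibers the kinase cofactors Mob1b and Mob1a led, at 0.919% and 0.973%, Mob1b shared 0.446% with Stk3 in P0.5 fibers, and Frmd6 was next to Stk3 in E14.5 epithelium at 1.33%.

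Of the other Vgll cofactors, Vgll1 had no promoter peak in any list and Vgll2 and Vgll3 had one in all, and Vgll3 stood at 0.321% in P0.5 epithelium against 3.15% in P0.5 fibers. Of 20 Yap and Tead targets, which include Lats2 of the kinases, 7 of 19 with a peak in both E14.5 lists and 6 of 17 at P0.5 stood nearer the top in epithelium, against the same 27.2% and 42.5%. Ankrd1, a cardiac repeat protein gene and Yap target, had a promoter peak at 22.5%, 49.3% and 52.3% in the first 3 lists and none in P0.5 fibers. Myof had a peak only in the fiber list of E14.5, at 38.0%, and the epithelium list of P0.5, at 58.5%, and Rbms3 had none in P0.5 fibers. Gadd45a, a stress response gene, held the highest place of the targets in 3 lists, at 0.317%, 0.324% and 0.147%, with 4.64% in P0.5 fibers. Asap1 stood at 2.57% and 2.61% in the 2 fiber lists, Ptpn14 at 4.38% in E14.5 epithelium and Nt5e at 4.88% in P0.5 epithelium.

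The share of a window that peaks cover gave a last view. For each list it was divided by the share of the genome covered, and the median of this ratio over the 10 genes was 4.54 for epithelium and 2.50 for fibers at E14.5, and 4.12 and 2.26 at P0.5. Among all genes it stood at 1.68, 1.58, 1.90 and 1.72 in the same order. By Euclidean distance over the 4 log2 ratios among 17387 genes, those most like Yap1 were Rbl2 (distance 0.0806), 4930407I10Rik (0.0875) and Atxn7 (0.139). Those most like Tead1 were Lgr4 (0.264), Otulin (0.328) and Slx4ip (0.348), and those most like Tead2 were Ube2c (0.0523), Cldn3 (0.0805) and Lrrc27 (0.131).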

How the data were processed

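The series holds ATAC-seq of lens epithelium and fibers from 2 developmental stages, as 4 groups of 2 libraries. The authors trimmed, aligned and deduplicated the reads (per the labels: Trim Galore 0.4.1, Bowtie2 2.3.3.1 to mm10, which is GRCm38, SAMtools 1.2 and Picard 2.1.1) and took peaks from MACS2 2.1, keeping q values up to 0.05. They deposited 1 list per group from both libraries, with no read counts. Each deposited peak has a fold enrichment over background at its summit (a ratio), a −log10 p value and a −log10 q value from the authors' peak caller. Such values depend on depth and are not comparable between lists, so peaks were placed by the rank of the fold enrichment within each list, equal values sharing the lowest rank. The table had 0 columns without a group.

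Peaks at most 10 bp apart were merged over the 4 lists (185368 regions, the number bedtools 2.31.1 gives, 185271 of them on the 21 chromosomes). Windows and promoters came from RefSeq GRCm38.p6. A promoter was the 2 kb around the start of any of 45756 curated transcripts. Motifs were searched on both strands in 200 bp at the summit of the strongest peak of a region. Intervals are Wilson 95% intervals and cover counting error only. With pooled lists there were no replicates, so nothing was tested. The merging, ranks and motif search were tested on simulated data. Python 3.11.15, pandas 2.3.3, numpy 2.4.6, scipy 1.17.1 and matplotlib 3.10.9 were used.

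The genes, the pathway and marker lists and the measures were chosen with earlier results of these data known. All 10 genes are named. The result of the retinal marker list is not reported here. Windows are described by their 3 highest placed regions and by the regions called in 1 tissue at both stages, and genes of the pathway lists are named if they lack a promoter peak in a list or hold the 2 best places of a list. The CTCF letters, the count at the highest ranking promoter regions, the 9 bp pair, the share without those promoter regions and the shares without the Tead1 and Vgll4 windows were added after the data were seen. Alternatives were other merge distances, flanks, q values, equal list lengths, motif windows, ranks and promoter widths.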

Additional observations from a re-analysis of the deposited data

How the results depend on the processing

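No paired analysis was possible because the lists pool the 2 libraries of a group, and leaving out a replicate could not be run for the same reason. The direction of each of the 10 promoter peaks between tissues was the same at both stages with places among the regions called in all 4 lists, which are on another scale, and with promoters within 1 kb. Ranks by p value and predicted transcripts left all 40 places as they were, the former because p value and fold enrichment put the peaks of a list in the same order, so neither tests the directions. Promoters within 1 kb left 39 places, Tead3 in P0.5 fibers moving from 21.4 to 26.4%. With equal numbers of peaks per list (58592), the windows held 255 regions and 29.9% of E14.5 fiber regions were not called in epithelium (all regions 31.2%). With q values under 0.001, 38.2% of P0.5 fiber regions were not called in epithelium (all regions 37.7%). The genome-wide shares moved with both. The Tead motif stood in 10.6% of regions in 100 bp (all regions 7.74%) and in 26.1% over whole regions (all regions 21.5%). Without the windows of Tead1 and Vgll4, 43.1% of E14.5 epithelium and 32.8% of E14.5 fiber regions were not called in the other tissue. A merge distance of 100 bp, other flanks and regions away from promoters left the shares not called in the other tissue within their intervals, although away from promoters the genome-wide shares rose by more than those of the windows, and other flanks did so for the motif share. With a merge distance of 0 bp only the number of regions was computed (419). List length and q value limit what absence from a list can show, since a weak region may be missed.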
